A study of Homo sapiens with 6 samples.

Results

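Mitosis and G2/M genes encode the proteins that take a cell with copied chromosomes through mitotic entry, chromosome alignment, chromosome separation and division. A set of 46 such genes was listed by name, from the cyclin-kinase engine to the proteins of cytokinesis, and matched by symbol to the gene identifiers of a table of 58735 genes. All 46 were found. Of these, 45 passed a filter of a mean of at least 1 FPKM over the 6 libraries, as did 12517 genes of the table. PRC1 was the 1 member below it. FPKM stands for fragments per kilobase of exon, scaled to the library's depth, so levels of genes of different length can be set side by side.

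The 6 libraries came from HOK-16B cells, immortalised oral keratinocytes of human origin, the cell type that lines the mouth. One group was pretreated with cannabidiol (CBD), a non-intoxicating cannabis compound, and the control group with vehicle, and both received an inflammatory stimulus (3 libraries each). Stimulus, dose and time are not named in the labels, an unstimulated group was not analysed here, and all samples are 1 line, although the free-text descriptions number the line differently from sample to sample while the cell line label is the same for all. HOK-16B is known from outside these files to have been immortalised with human papillomavirus DNA, whose oncoproteins act on the p53 and RB proteins, which also control mitotic genes. Separate cultures are not stated for the replicates, and the p-values then reflect only sample-to-sample spread, possibly technical. In bulk RNA, fewer dividing cells and less of each transcript per dividing cell cannot be told apart.

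Each library held 18213784 to 22158614 fragments counted in genes. Keratinocyte markers were present throughout: 12 of 12 had a mean of at least 1 FPKM, with summed levels of 12709 to 13300 FPKM in CBD and 10364 to 12204 FPKM in vehicle libraries. Of the fibroblast, leukocyte, endothelial and melanocyte lists, 1 of 8, 1 of 7, 0 of 5 and 1 of 4 markers reached that level (COL1A1, CD14 and PMEL), and PDGFRA, CD3E and TYR were listed at 0. The summed fibroblast list was 9.31 to 9.41 FPKM in CBD and 7.40 to 8.14 FPKM in vehicle libraries, and its part in the results was not tested. Vehicle replicate 1 stood apart from the other 5 libraries: on the first principal component, with 47.7% of the variance, it lay at 25.1, against -12.7 to -10.3 for the CBD libraries and -0.74 and 9.36 for vehicle replicates 2 and 3. The libraries also differed in GC content, the share of G and C bases in the transcripts counted, which averaged 50.8%, 50.8% and 50.7% per fragment in CBD replicates 1 to 3 and 49.6%, 50.3% and 49.99% in vehicle replicates 1 to 3. Beside the differences as deposited, values without vehicle replicate 1 and with the GC trend removed from each library are therefore given for the gene groups and for most named members.

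Mitosis is driven by CDK1 bound to cyclin B, which phosphorylates its many substrates once the CDC25 phosphatases have activated it. Kinetochores then tie chromosomes to spindle microtubules, the spindle checkpoint holds anaphase back until all are attached, and the anaphase-promoting complex (APC/C) ends mitosis by marking cyclin B and securin for destruction. The genes of this machinery are transcribed late in the cell cycle through a promoter element called the CHR (cell cycle genes homology region), bound by the DREAM and MMB complexes and FOXM1, often with CCAAT boxes bound by NF-Y. In the oral epithelium, division is normally a feature of basal and parabasal keratinocytes.

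The promoters are shown first because they carry the feature that most members share. RefSeq windows on GRCh38.p14, from 250 bases before to 50 bases after an annotated start, were available for 39 of the 46 members; AURKA, BIRC5, BUB3, FOXM1, TPX2, TTK and UBE2C were not matched. The CHR was searched as TTTGAA or TTCGAA and the NF-Y box as CCAAT, on both strands; TTCGAA is its own reverse complement, and CHR and CCAAT matches can overlap at their ends. A CHR match stood in a window of 30 of the 39 members (76.9%), against 19.5% of 27305 genes in the promoter table and 15.3% of the 8771 tested protein-coding genes matched to it. CCAAT matches stood in 32 members (82.1%), against 39.7% and 43.7% of the same sets. Both motifs stood in 26 members (66.7%), against 7.85% and 6.54%. Restricted to TTTGAA, or to the last 150 bases of the window, the CHR was found in 28 members each (71.8%), against 18.2% and 9.09% of all genes in the table.

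The last 200 bases of 8 windows follow, 5′ to 3′ in the direction of the gene, with CHR and CCAAT matches on either strand in capitals. CCNB2 (chr15:59104996-59105195, plus strand), PLK1 (chr16:23678739-23678938, plus) and KIF23 (chr15:69414199-69414398, plus) show the usual order of CCAAT boxes upstream of 1 CHR. CDK1 (chr10:60778328-60778527, plus) and ECT2 (chr3:172750576-172750775, plus) hold several of each. NDC80 (chr18:2571407-2571606, plus) has CHR letters only, SPC24 (chr19:11155733-11155932, minus) has CCAAT letters only, and CENPE (chr4:103198294-103198493, minus) has neither.
CCNB2: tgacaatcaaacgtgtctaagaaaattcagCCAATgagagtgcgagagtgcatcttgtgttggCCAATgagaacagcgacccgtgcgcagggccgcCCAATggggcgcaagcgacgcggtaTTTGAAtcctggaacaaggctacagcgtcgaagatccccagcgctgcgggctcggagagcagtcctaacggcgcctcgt
PLK1: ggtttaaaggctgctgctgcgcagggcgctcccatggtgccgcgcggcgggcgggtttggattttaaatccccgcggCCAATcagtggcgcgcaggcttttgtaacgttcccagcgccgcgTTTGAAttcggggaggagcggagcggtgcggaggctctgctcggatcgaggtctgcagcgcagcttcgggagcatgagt
KIF23: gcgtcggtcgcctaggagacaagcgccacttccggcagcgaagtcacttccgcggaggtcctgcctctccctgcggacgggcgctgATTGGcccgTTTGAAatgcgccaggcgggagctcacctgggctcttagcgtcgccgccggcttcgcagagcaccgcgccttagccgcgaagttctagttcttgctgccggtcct
CDK1: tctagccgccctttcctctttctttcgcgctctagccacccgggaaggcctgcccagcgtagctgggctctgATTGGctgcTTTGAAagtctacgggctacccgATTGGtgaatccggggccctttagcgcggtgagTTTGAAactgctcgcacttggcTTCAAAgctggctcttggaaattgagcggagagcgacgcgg
ECT2: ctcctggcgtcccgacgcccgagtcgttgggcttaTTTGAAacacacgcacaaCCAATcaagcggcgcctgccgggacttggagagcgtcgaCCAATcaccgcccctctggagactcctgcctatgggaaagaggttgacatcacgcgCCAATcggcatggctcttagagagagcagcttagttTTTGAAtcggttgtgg
NDC80: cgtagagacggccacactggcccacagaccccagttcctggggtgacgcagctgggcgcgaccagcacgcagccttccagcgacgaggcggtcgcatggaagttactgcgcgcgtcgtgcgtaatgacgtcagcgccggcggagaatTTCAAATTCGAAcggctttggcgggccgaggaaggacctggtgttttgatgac
SPC24: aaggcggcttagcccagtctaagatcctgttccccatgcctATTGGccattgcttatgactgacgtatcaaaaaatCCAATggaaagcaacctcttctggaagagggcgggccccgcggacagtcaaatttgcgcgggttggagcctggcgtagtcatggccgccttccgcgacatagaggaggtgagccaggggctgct
CENPE: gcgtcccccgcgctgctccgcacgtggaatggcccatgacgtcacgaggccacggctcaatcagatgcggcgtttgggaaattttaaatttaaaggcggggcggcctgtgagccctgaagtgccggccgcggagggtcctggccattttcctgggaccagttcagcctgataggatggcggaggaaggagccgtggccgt

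Counting the annotated start as base 1 with no base 0, the CHR of CCNB2 begins at -29, behind CCAAT boxes at -54, -87 and -120, and the CHR of PLK1 also begins at -29, behind a box at -73. In CDK1 the CHR matches begin at -69, -13 and 10. NDC80, an outer kinetochore subunit, has adjoining matches at -3 and 4. These letters are a description of the windows and not of binding, and other letter forms of the CHR were not searched.

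**Figure D1:**
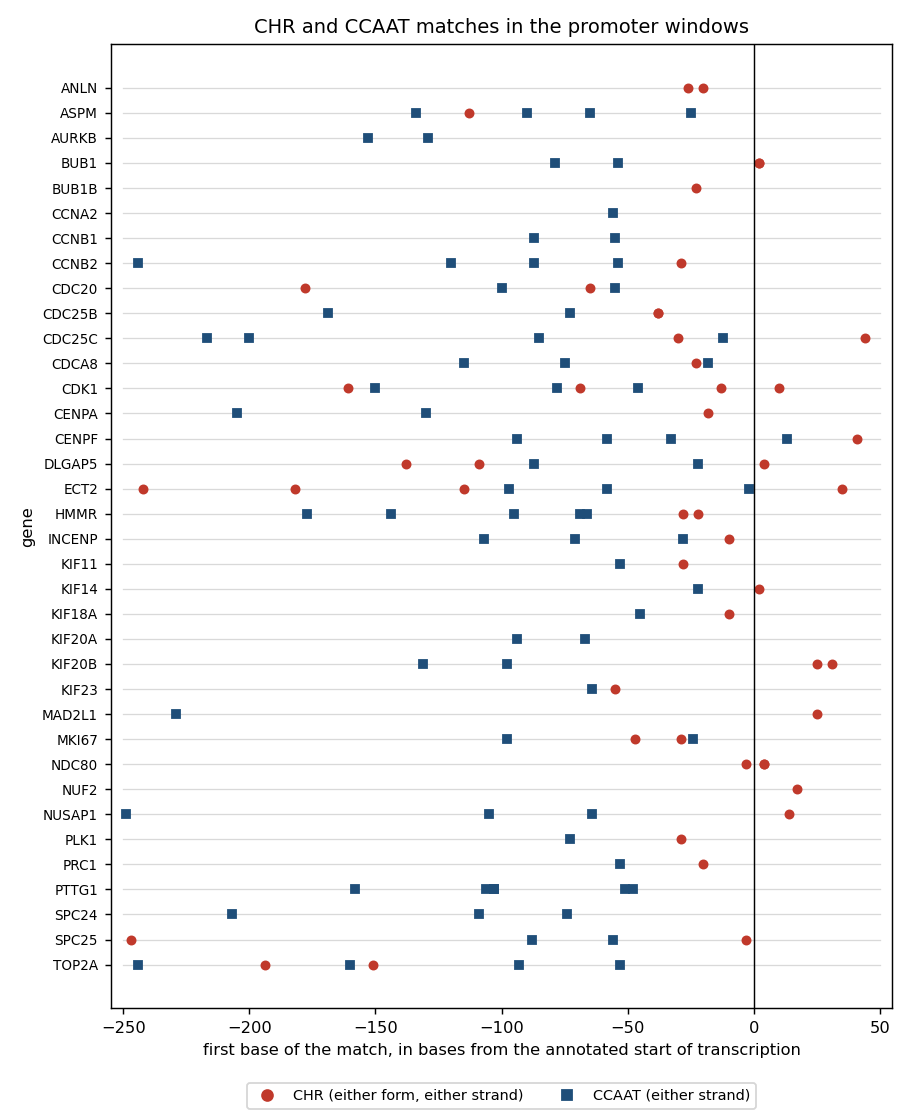
Positions of CHR matches (red circles, TTTGAA or TTCGAA) and CCAAT matches (blue squares) in the promoter windows of the members that have any; the horizontal axis is the first base of the match in bases from the annotated start, and each row is 1 gene, with all its windows drawn together. Where windows of a gene overlap, the same site is drawn once per window at different positions, such as for CDC25C, ECT2 and PTTG1. CHR matches stood in 28 of 39 members within the last 150 bases.

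Recovered fragments per tested member and library ran from 246 to 14474. The level of a member averaged between 4.37 FPKM for CDC25C and 82.0 FPKM for UBE2C over the 6 libraries, with 7 members at 50 FPKM or more (UBE2C, TOP2A, TPX2, CDC20, CCNB1, PTTG1 and CCNA2) and 7 under 10 FPKM. With CBD the summed level of the members was 1269, 1198 and 1215 FPKM in replicates 1 to 3, against 1401, 1261 and 1333 FPKM in vehicle replicates 1 to 3. The highest CBD sum exceeded the lowest vehicle sum, so the sums overlapped.

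None of the 45 tested members was called in either direction (limma on log2(FPKM + 1), Benjamini-Hochberg adjustment over all 12517 genes, threshold 0.05); the same fit called 32 genes (0.256%) higher and 12 genes (0.0959%) lower with CBD, or 2 and 2 with every library rescaled to the same sum. The smallest adjusted p of a member was 0.0726, for ECT2. At an unadjusted p under 0.05, limma placed 17 members lower and 2 higher, against 16.0% and 15.4% of all tested genes. The log2 differences (CBD minus vehicle) ran from -0.33 for CENPE to 0.22 for SPC24, with 35 members below 0, 10 above 0 and a median of -0.14, against -0.01 for all tested genes. In 19 members all CBD values lay below all vehicle values and in 4 all lay above (PLK1, SPC24, INCENP and BIRC5), against 21.9% and 18.7% of all tested genes; in 22 the groups overlapped.

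The count of called members depended on the method and on 1 library. With limma-voom on the recovered fragments, 11 members were called lower and 0 higher, against 6.68% and 7.26% of all tested genes. They were ANLN, CENPE, CENPF, DLGAP5, ECT2, HMMR, KIF18A, KIF20B, KIF23, NDC80 and TPX2. Without vehicle replicate 2, limma called 16 lower, these 11 with BUB1, BUB1B, CKAP2, KIF14 and MAD2L1, and 1 higher, SPC24, against 8.66% and 10.1% of all tested genes. With only genes of at least 5 FPKM on average in the fit, ECT2 alone was called lower and 0 members higher, against 4.19% and 5.87% of 7275 genes. No other of the alternatives tried called a member. Neither limma-voom nor the fit without vehicle replicate 2 removed the GC trend. The members they called lower had median GC contents of 38.3% and 38.8%, against 43.0% for all tested members. With the GC trend removed over the 6 libraries, the median differences of these called members were -0.13 and -0.10, against -0.04 for all 45 tested members. The called members were picked by their low CBD values in these same libraries, so a median below 0 is partly set by that choice.

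The members also differed between libraries of the same group. Relative to each gene's mean over the 6 libraries on the log2(FPKM + 1) scale, the median member lay at -0.04, -0.10 and -0.08 in CBD replicates 1 to 3 and at 0.18, -0.03 and 0.06 in vehicle replicates 1 to 3. Vehicle replicate 1, the library with the lowest GC content, was the highest of the 6 for 30 of the 45 members, while CBD replicate 2 was the lowest for 22. Of the 19 members whose CBD values all lay below the vehicle values, 18 were highest in vehicle replicate 1, and in 18 vehicle replicate 2 was the closest vehicle library to the CBD libraries. Without vehicle replicate 1 the median difference was -0.09, again with 35 members below 0 and 10 above.

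**Figure D2:**
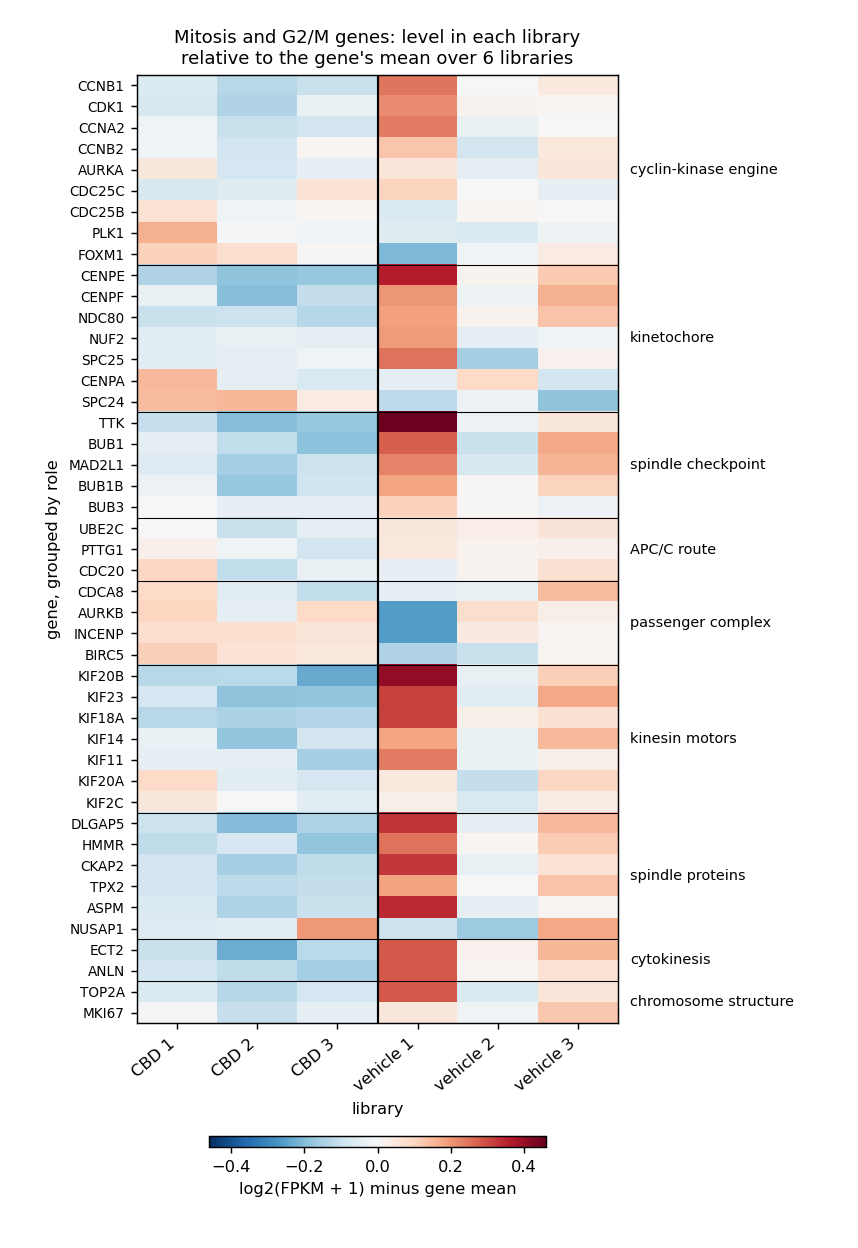
Level of each tested member in each library as log2(FPKM + 1) minus the gene's mean over the 6 libraries (colour), with genes in rows grouped by role and the 3 CBD libraries left of the 3 vehicle libraries. Vehicle replicate 1 is the highest library for 30 of 45 members, and FOXM1, AURKB, INCENP, BIRC5 and SPC24 show the opposite tone there.

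The cyclin-kinase engine starts mitosis. CCNB1 encodes cyclin B1, the activating partner of CDK1; it had 53.8, 51.4 and 52.3 FPKM in CBD libraries, against 66.8, 56.1 and 58.0 FPKM in vehicle libraries. CDK1, the mitotic kinase itself, had 35.5, 33.9 and 36.6 FPKM in CBD libraries, against 43.7, 37.9 and 37.6 FPKM in vehicle libraries. For both genes every CBD library lay below every vehicle library, with vehicle replicate 1 the highest, and the CDK1 gap to the nearest vehicle library was narrow. The log2 difference was -0.19 ± 0.07 for CCNB1 (SE; limma adjusted p = 0.124) and -0.16 ± 0.07 for CDK1 (0.163), neither past the threshold; without vehicle replicate 1 they were -0.12 and -0.09. The FPKM ratio of CCNB1 to CDK1 was 1.49 ± 0.0503 with CBD and 1.52 ± 0.0313 with vehicle (SD, n = 3), a difference smaller than either SD.

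PLK1 is a kinase that promotes mitotic entry and spindle assembly; it had 22.7, 20.1 and 19.9 FPKM in CBD libraries, against 19.3, 19.2 and 19.8 FPKM in vehicle libraries. FOXM1, a transcription factor that activates G2/M genes, had 28.1, 27.4 and 26.1 FPKM in CBD libraries, against 22.4, 25.7 and 26.7 FPKM in vehicle libraries. Their mean levels were thus higher with CBD, by 0.10 ± 0.06 for PLK1 (limma adjusted p = 0.3003) and 0.12 ± 0.07 for FOXM1 (0.272), but FOXM1 overlapped between groups, and the lowest CBD value of PLK1 lay just above its highest vehicle value. Without vehicle replicate 1 the difference was 0.09 for PLK1 and 0.05 for FOXM1, and with the GC trend removed it was -0.02 and 0.06. The other engine members were CCNA2 (cyclin A2, which partners CDK1 before mitosis), CCNB2 (cyclin B2), the phosphatases CDC25B and CDC25C that activate CDK1, and AURKA, a centrosome kinase. Their differences ran from -0.14 for CCNA2 to 0.04 for CDC25B, and the groups overlapped in each of them; CCNA2 stood at -0.05 without vehicle replicate 1. The median of the 9 engine members was -0.05, or -0.01 without that library and 0.0015 with the GC trend removed.

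Kinetochore genes held both ends of the range. NDC80, with NUF2, SPC24 and SPC25, forms the complex that grips microtubules; NDC80 on chromosome 18 (2571511 to 2616635, GENCODE 29 span on GRCh38) had 11.9, 12.0 and 11.7 FPKM in CBD libraries, against 14.8, 13.05 and 14.2 FPKM in vehicle libraries. CENPE, a kinetochore kinesin that moves chromosomes to the spindle equator (chromosome 4, 103105806 to 103198409), had 8.12, 7.84 and 7.91 FPKM in CBD libraries, against 11.9, 9.17 and 9.93 FPKM in vehicle libraries. All CBD values lay below all vehicle values for both genes, and the CBD libraries lay closer together than the vehicle libraries. The difference was -0.22 ± 0.06 for NDC80 (limma adjusted p = 0.0746) and -0.33 ± 0.09 for CENPE (0.0778); without vehicle replicate 1 it was -0.18 and -0.23.

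SPC24, a subunit of the same complex on chromosome 19 (11131520 to 11155808), went the other way: it had 14.8, 14.9 and 13.7 FPKM in CBD libraries, against 12.2, 13.1 and 11.6 FPKM in vehicle libraries. Every CBD value lay above every vehicle value, by 0.22 ± 0.06 on average (limma adjusted p = 0.0811) and by 0.22 without vehicle replicate 1. The FPKM ratio of SPC24 to NDC80 was 1.24, 1.25 and 1.17 in CBD libraries, against 0.822, 1.001 and 0.817 in vehicle libraries. The ratios did not overlap, and this pair was set side by side after its values were seen. The GC contents of SPC24 and NDC80 are 57.2% and 40.8%. With the GC trend removed SPC24 stood at 0.10 and NDC80 at -0.09, and a ratio with that trend removed was not made. NUF2 and SPC25 had overlapping groups, with differences of -0.09 and -0.08, or -0.01 and 0.03 without vehicle replicate 1. CENPF, a large kinetochore and nuclear matrix protein, had a difference of -0.23, or -0.18 without that library, and CENPA, the histone that marks centromeres, of 0.03. With the GC trend removed CENPF stood at -0.09 and CENPA at 0.04. The median of the 7 kinetochore and centromere members was -0.09, or -0.01 without that library and 0.04 with the GC trend removed.

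**Figure D3:**
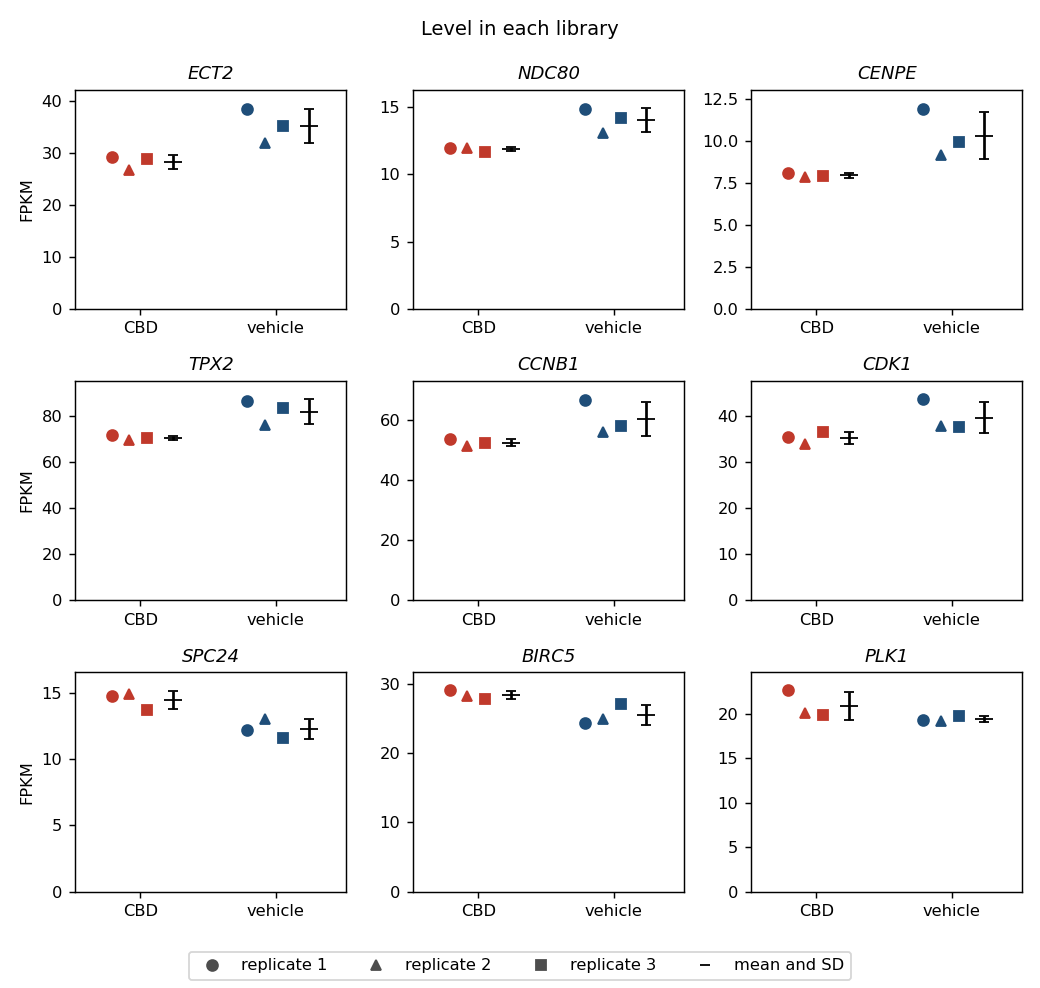
FPKM of 9 members in each library, with CBD libraries in red left of vehicle libraries in blue, marker shape for the replicate number, and bars for the mean and SD of 3 libraries; axes start at 0. ECT2, NDC80, CENPE, TPX2, CCNB1 and CDK1 lie lower in every CBD library, and SPC24, BIRC5 and PLK1 higher.

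The spindle checkpoint kinases and adaptors had a median difference of -0.21 over 5 members, 3 of them lower at an unadjusted limma p under 0.05, against 16.0% of all tested genes, and 0 called. With the GC trend removed the median was -0.11 and 0 of 5 were at that level, against 10.1% of all genes. BUB1B encodes BUBR1, a part of the mitotic checkpoint complex; it had 13.05, 11.7 and 12.4 FPKM in CBD libraries, against 15.2, 13.4 and 14.4 FPKM in vehicle libraries. TTK, the checkpoint kinase MPS1, had 12.8, 12.0 and 12.2 FPKM in CBD libraries, against 19.3, 13.6 and 14.4 FPKM in vehicle libraries. In both the groups did not overlap, and TTK was far higher in vehicle replicate 1 than in the other vehicle libraries. The difference was -0.20 ± 0.06 for BUB1B (limma adjusted p = 0.105) and -0.32 ± 0.12 for TTK (0.133), or -0.15 and -0.17 without vehicle replicate 1. With the GC trend removed it was -0.11 and -0.16. MAD2L1 (the MAD2 protein that inhibits CDC20), BUB1 and BUB3 had differences of -0.21, -0.23 and -0.05, with overlapping groups. Without vehicle replicate 1 they were -0.15, -0.15 and -0.02, and with the GC trend removed -0.06, -0.11 and 0.05.

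The 3 members of the route through the APC/C had a median difference of -0.06, also without vehicle replicate 1, and of -0.11 with the GC trend removed. UBE2C, the ubiquitin-conjugating enzyme of the APC/C, had 82.1, 76.3 and 79.4 FPKM in CBD libraries, against 84.9, 83.8 and 85.3 FPKM in vehicle libraries. PTTG1, which encodes securin, had 53.8, 52.1 and 49.7 FPKM in CBD libraries, against 54.8, 53.6 and 53.8 FPKM in vehicle libraries. UBE2C was lower in every CBD library, while PTTG1 overlapped between the groups. The differences were -0.09 ± 0.05 for UBE2C (limma adjusted p = 0.208) and -0.06 ± 0.05 for PTTG1 (0.420). CDC20, the activator that the checkpoint blocks, overlapped between groups with a difference of -0.03. With the GC trend removed UBE2C stood at -0.11 and CDC20 at -0.15, both at an unadjusted limma p under 0.05 and neither called.

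The chromosomal passenger complex, which corrects faulty attachments and guides cytokinesis, had a median difference of 0.12 over 4 members, which was 0.019 without vehicle replicate 1 and -0.0082 with the GC trend removed. BIRC5 encodes survivin; it had 29.02, 28.2 and 27.8 FPKM in CBD libraries, against 24.3, 24.9 and 27.1 FPKM in vehicle libraries. INCENP, the scaffold of the complex, had 35.4, 35.3 and 34.9 FPKM in CBD libraries, against 27.9, 34.5 and 33.8 FPKM in vehicle libraries. The CBD values lay above the vehicle values for both, but INCENP was nearly level except in vehicle replicate 1. The difference was 0.15 ± 0.05 for BIRC5 (limma adjusted p = 0.120) and 0.14 ± 0.08 for INCENP (0.285); without vehicle replicate 1 it was 0.12 and 0.04. AURKB, the kinase of the complex, and CDCA8 (borealin) had overlapping groups, with 0.10 and -0.05, or -0.0045 and -0.08 without that library.

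Among the mitotic kinesins 4 of 7 had an unadjusted limma p under 0.05, all lower, against 16.0% of all tested genes, and 0 were called. Their median was -0.20, or -0.15 without vehicle replicate 1. With the GC trend removed it was -0.03, and 1 of 7 was lower at that level, against 10.1% of all genes. KIF18A, which damps chromosome movements at plus ends, had 6.19, 6.09 and 6.15 FPKM in CBD libraries, against 8.76, 6.998 and 7.24 FPKM in vehicle libraries. KIF23, the MKLP1 motor of the central spindle, had 13.5, 12.5 and 12.5 FPKM in CBD libraries, against 18.0, 13.8 and 16.3 FPKM in vehicle libraries. The groups did not overlap, and the lowest vehicle value of KIF23 lay close to its highest CBD value. The difference was -0.27 ± 0.08 for KIF18A (limma adjusted p = 0.0882) and -0.29 ± 0.09 for KIF23 (0.09998), or -0.18 and -0.21 without vehicle replicate 1. KIF20B and KIF14, both of late mitosis, stood at -0.32 and -0.20, KIF11 (Eg5, which pushes spindle poles apart) at -0.16, KIF20A (MKLP2) at -0.02 and the microtubule depolymerase KIF2C at 0.01. Without vehicle replicate 1 KIF20B stood at -0.20, KIF14 at -0.15 and KIF11 at -0.08. With the GC trend removed KIF18A stood at -0.10, KIF23 at -0.17, KIF20B at -0.13 and KIF14 at -0.03.

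Spindle and microtubule proteins had a median of -0.22 over 6 tested members, or -0.15 without vehicle replicate 1 and -0.08 with the GC trend removed. TPX2 activates AURKA on spindle microtubules; it had 71.6, 69.8 and 70.4 FPKM in CBD libraries, against 86.4, 75.9 and 83.3 FPKM in vehicle libraries. HMMR, a spindle-binding protein also known as RHAMM, had 20.6, 21.2 and 19.7 FPKM in CBD libraries, against 26.8, 22.6 and 24.4 FPKM in vehicle libraries. Both lay lower in every CBD library. The difference was -0.21 ± 0.06 for TPX2 (limma adjusted p = 0.0833) and -0.25 ± 0.07 for HMMR (0.0831), or -0.17 and -0.19 without vehicle replicate 1. DLGAP5, CKAP2 and ASPM, which stabilise spindle fibres or poles, stood at -0.29, -0.24 and -0.21, or at -0.20, -0.13 and -0.09 without that library. With the GC trend removed HMMR stood at -0.08, DLGAP5 at -0.13, CKAP2 at -0.07 and ASPM at -0.04.

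NUSAP1 and PRC1 could not be read as firmly. NUSAP1, a microtubule-bundling protein, shares 62.2% of its exon length with AC087721.2, a gene model listed at 0 in all libraries, and its groups overlapped (4.64 ± 0.593 FPKM with CBD and 4.42 ± 0.709 FPKM with vehicle). PRC1, which bundles the antiparallel microtubules of the midzone, shares 58.4% with AC068831.7 and PRC1-AS1. AC068831.7 lies on the same strand as PRC1, and PRC1-AS1 on the other. The strand setting of the counting is not known here, and it bears only on PRC1-AS1. It had 0.334, 0.321 and 0.360 FPKM in CBD libraries, from 44, 41 and 41 fragments, against 0.428, 0.322 and 0.341 FPKM in vehicle libraries, from 54, 39 and 37 fragments. The groups overlapped (exact two-sided permutation p = 0.6, where 0.1 is the smallest possible). The part of the shared exons in this low level was not tested. Of 17 members that share any exon length with other genes, the other members share 15.9% (FOXM1) or less.

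Cytokinesis genes gave the smallest p of the set. ECT2 encodes the exchange factor that activates RHOA at the division plane (chromosome 3, 172750682 to 172821474); it had 29.3, 26.7 and 28.8 FPKM in CBD libraries, against 38.5, 31.9 and 35.1 FPKM in vehicle libraries. ANLN, the anillin scaffold of the contractile ring (chromosome 7, 36389806 to 36453791), had 43.7, 42.6 and 41.4 FPKM in CBD libraries, against 56.7, 46.8 and 48.6 FPKM in vehicle libraries. All CBD values lay below all vehicle values for both, with vehicle replicate 1 the highest. The difference was -0.30 ± 0.08 for ECT2 (limma adjusted p = 0.0726) and -0.24 ± 0.08 for ANLN (limma adjusted p = 0.0981). Without vehicle replicate 1 it was -0.24 and -0.16. With the GC trend removed it was -0.14 and -0.10, with a median of -0.12.

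TOP2A and MKI67, both commonly used to score proliferation, overlapped between the groups. TOP2A, the topoisomerase that untangles sister chromatids, had 77.3, 73.6 and 76.4 FPKM in CBD libraries, against 98.4, 77.1 and 83.9 FPKM in vehicle libraries. MKI67, the Ki-67 protein that coats mitotic chromosomes, had 39.1, 36.4 and 38.0 FPKM in CBD libraries, against 40.8, 38.8 and 42.9 FPKM in vehicle libraries. The difference was -0.18 ± 0.09 for TOP2A (limma adjusted p = 0.205), or -0.09 without vehicle replicate 1, and -0.11 ± 0.05 for MKI67 (0.225), or -0.11. The 95% interval for MKI67 ran from -0.24 to 0.02. With the GC trend removed TOP2A stood at -0.03 and MKI67 at -0.07.

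**Figure D4:**
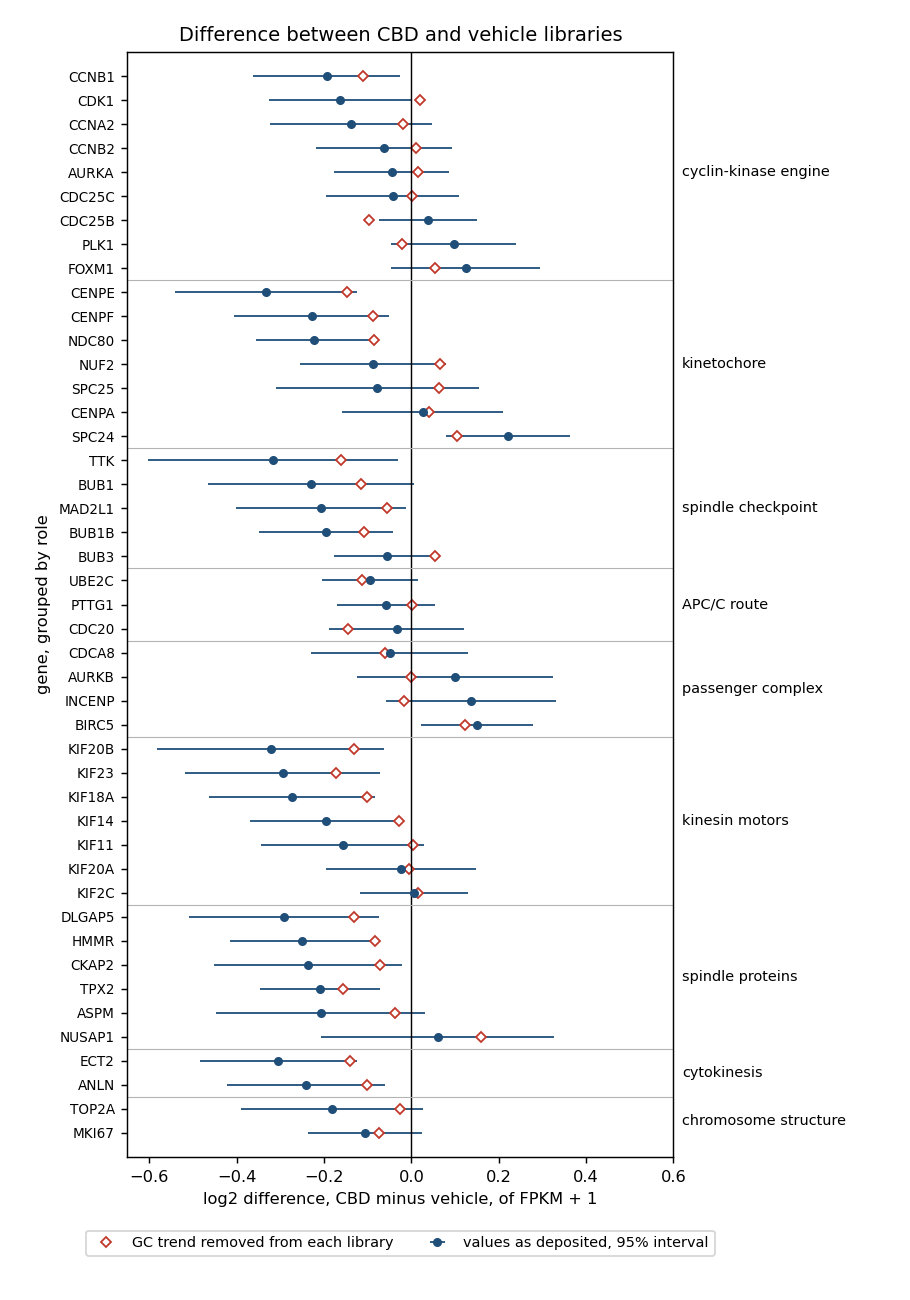
Log2 difference (CBD minus vehicle, of FPKM + 1) of each tested member with its 95% interval from limma (filled circles) and the difference with the GC trend removed from each library (open diamonds), grouped by role. The values as deposited run from -0.33 for CENPE to 0.22 for SPC24, and the diamonds from -0.17 to 0.16.

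The order of the members largely followed the GC content of their transcripts. Across the 45 members the log2 difference and GC content had a Spearman correlation of 0.83 and a Pearson correlation of 0.85; this is a description across genes measured in the same 6 libraries, without a test. Over all tested genes the Spearman correlation was 0.67, and over the members without vehicle replicate 1 it was 0.71. KIF20B and CENPE, with GC contents of 34.1% and 35.5%, stood at the low end, and SPC24 and INCENP, with 57.2% and 59.3%, near the high end. Some members of like GC content had smaller differences: CDK1 (35.8%) stood at -0.16, CDC25B (58.2%) at 0.04 and CDC20 (56.9%) at -0.03. NDC80 has 40.8% GC and its partner SPC24 57.2%.

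Members and other genes were also set side by side within bands of GC content. Below 40% GC, 15 of 15 members were below 0, with a median of -0.24, as were 90.9% of 1462 genes, with a median of -0.17. From 40% to 45%, 10 of 11 members were below 0 (median -0.20), against 84.0% of 2919 genes (median -0.12). From 45% to 50% it was 7 of 9 (median -0.05), against 65.2% of 2391 genes (median -0.05), and above 50% 3 of 10 (median 0.10), against 21.8% of 5738 genes (median 0.12). Most members thus lay in the GC-poor bands, where most other genes were also below 0.

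**Figure D5:**
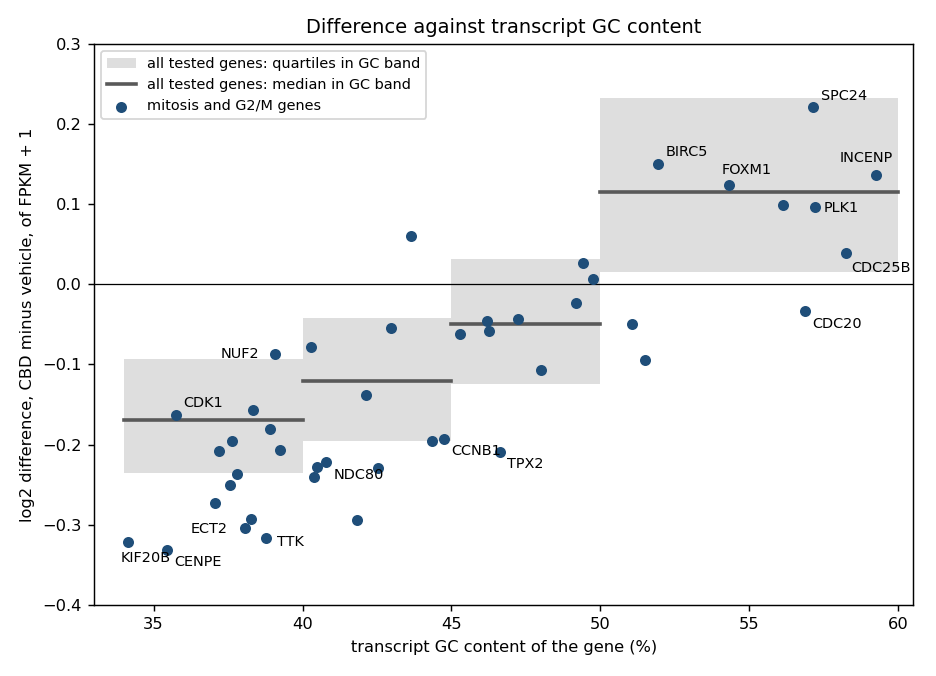
Log2 difference of each tested member (points; CBD minus vehicle, of FPKM + 1) against the GC content of its transcripts in percent, over the median (line) and quartiles (grey) of all tested genes in 4 GC bands; the outer bands also hold genes beyond the plotted range. Members below 40% GC all lie below 0, as do 3 of 10 above 50%.

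With a loess trend in GC content removed from each library, the median difference of the members was -0.04, with 30 below 0 and 15 above; 13 members changed sign, among them CDK1 (0.02), PLK1 (-0.02), INCENP (-0.02) and NUF2 (0.07). At an unadjusted limma p under 0.05 there were then 6 members lower (TPX2, ECT2, CENPE, UBE2C, KIF23 and CDC20) and 1 higher (BIRC5), against 10.1% and 8.22% of all tested genes. By adjusted p limma then called 0 members, and 0.032% of all genes in each direction. ECT2 stood at -0.14, CENPE at -0.15, NDC80 at -0.09, TPX2 at -0.16, CCNB1 at -0.11, SPC24 at 0.10 and BIRC5 at 0.12. The values in the last sentence were smaller in size than those as deposited, with TPX2 and BIRC5 changing the least. KIF23 was also smaller, at -0.17 against -0.29. UBE2C and CDC20 were larger in size, at -0.11 and -0.15 against -0.09 and -0.03 as deposited. The groups and the GC content of the libraries differ together, so what each contributes cannot be told apart here.

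Members with and without CHR letters were also set side by side. The 29 tested members with a CHR match had a median difference of -0.18 and 24 were below 0; the 9 without one had a median of -0.06 and 6 were below 0. Their median GC contents were 40.5% and 46.3%, and with the GC trend removed the medians were -0.06 and -0.01. CENPE, with no match, had the most negative difference of all members. Only TTTGAA and TTCGAA were searched, so a member without a match is not shown to lack a CHR.

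Genes around this set were read from 6 other lists (162 genes, 161 tested), and 0 of them were called by limma, with 48 lower and 13 higher at an unadjusted p under 0.05, against 16.0% and 15.4% of all tested genes. Their median was -0.09, or -0.06 without vehicle replicate 1. With the GC trend removed 24 were lower and 7 higher at that level, against 10.1% and 8.22% of all genes, with a median of -0.05. By adjusted p limma-voom called 21 lower and 7 higher, against 6.68% and 7.26% of all genes.

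The single lists can be read against the same shares of all tested genes, 16.0% lower and 15.4% higher. With the GC trend removed these are 10.1% and 8.22%. Of 52 further centromere, kinetochore and checkpoint genes 13 were lower and 2 higher at an unadjusted limma p under 0.05 (median -0.08), or 6 and 1 with the GC trend removed (median -0.03). SKA3, a partner of the NDC80 complex at microtubules, had 10.5 ± 0.102 FPKM with CBD and 14.2 ± 1.09 FPKM with vehicle (SD, n = 3; limma adjusted p = 0.0538), a difference of -0.39 that was -0.33 without vehicle replicate 1 and -0.27 with the GC trend removed. SGO2, a protector of centromeric cohesion, and CEP55, which acts in abscission, stood at -0.36 and -0.25, or -0.20 and -0.12 with that trend removed. Condensin and cohesin genes (9 of 19 lower, 1 higher, median -0.17) included SMC4, a condensin subunit, with 35.6 ± 0.326 FPKM with CBD and 42.8 ± 2.97 FPKM with vehicle, and the cohesin genes STAG1 and WAPL at -0.23 and -0.17. After removal of the GC trend 3 of the 19 were lower and 0 higher (median -0.06), with SMC4 and STAG1 at -0.10 each and WAPL at -0.02. Of 17 subunits and regulators of the APC/C 7 were lower and 1 higher (median -0.13), led by ANAPC7 with 6.69 ± 0.305 FPKM with CBD and 8.27 ± 0.201 FPKM with vehicle (limma adjusted p = 0.0574), with the APC/C inhibitor gene FBXO5 at -0.31 and CDC27 at -0.25. After removal of the GC trend 2 of the 17 were lower and 0 higher (median -0.06), with ANAPC7 at -0.21, FBXO5 at -0.14 and CDC27 at -0.11.

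The regulators of the CHR and CCAAT elements and the brakes on mitotic entry were mixed. Of 17 tested DREAM, MMB and NF-Y regulators 4 were lower and 1 higher at an unadjusted limma p under 0.05 (median -0.08). With the GC trend removed 3 were lower and 2 higher (median -0.06). The shares of all tested genes were 16.0% and 15.4%, or 10.1% and 8.22% with that trend removed. CDKN1A encodes p21, which inhibits cyclin-dependent kinases and favours the DREAM complex; it had 67.7, 74.3 and 67.6 FPKM in CBD libraries, against 51.6, 58.4 and 50.7 FPKM in vehicle libraries. Every CBD value lay above every vehicle value, with a difference of 0.38 (limma adjusted p = 0.0574) that was 0.35 without vehicle replicate 1 and 0.24 with the GC trend removed. The DREAM genes E2F5 and RBL1 stood at -0.27 and -0.21, or at -0.12 and -0.08 with the GC trend removed. E2F5 averaged only 1.49 FPKM. Of 16 genes of G2/M entry and its brakes 2 were lower and 3 higher at that level (median 0.02), close to those shares. With the GC trend removed 1 was lower and 2 higher (median 0.03), and without vehicle replicate 1 the median was -0.03. This list includes PKMYT1, a kinase that inhibits CDK1, at 0.33 (0.23 without that library and 0.04 with the GC trend removed). It also holds GADD45A, a stress-induced brake, at 0.34, and MASTL, the Greatwall kinase that promotes entry, at -0.24. GADD45A and MASTL stood at 0.24 and -0.18 without vehicle replicate 1, and at 0.22 and -0.10 with the GC trend removed.

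DNA replication genes, which are expressed earlier in the cycle, had 13 of 40 lower and 5 higher at an unadjusted limma p under 0.05, against 16.0% and 15.4% of all tested genes, with a median of -0.05. Once the GC trend was removed 9 were lower and 2 higher, against 10.1% and 8.22% of all genes, with a median of -0.05. The replication licensing factor CDT1 had 34.6 ± 1.26 FPKM with CBD and 26.2 ± 2.23 FPKM with vehicle (SD, n = 3), a difference of 0.39 (limma adjusted p = 0.0557), and its ubiquitin ligase adaptor DTL stood at -0.26 with 12.6 ± 0.194 FPKM with CBD and 15.3 ± 0.821 FPKM with vehicle. POLD1, the catalytic subunit of DNA polymerase delta, stood at 0.28. CDT1 and POLD1 have GC contents of 65.2% and 64.8% and stood at 0.12 and 0.02 with the GC trend removed, while DTL has 42.4% and stood at -0.14.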

How the data were processed

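Total RNA of 6 HOK-16B samples was extracted on columns, and paired-end libraries were made, per the labels' protocols. The authors deposited 1 table of FPKM values, a column per library with no pooling, per the file headers. An aligner, HISAT2 2.0.5, and a counter, featureCounts 1.5.0-p3, appear in the submitters' processing notes; genome build, annotation and strand setting are not given in the sources used here. Groups follow the treatment label; titles give the replicate numbers. One marker gene is not reported here.

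All 58735 identifiers were in GENCODE 29 (GRCh38), and 58207 had a current symbol. FPKM times exon-union length gave whole fragments for 100% of values (tolerance 0.01 of a read), hence the depths of 18213784 to 22158614; 3 reads at 1 kb are 0.126 to 0.153 FPKM, a floor for counting error only. GC content was taken over all annotated transcripts of a gene. Replicates differed beyond sampling noise (chi-square per gene 3.10 to 18.4), so each counted as 1 sample.

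Differences were fitted with limma 3.58.1 in R 4.3.3 on log2(FPKM + 1), a scale that understates the change of low genes, for the 12517 genes with a mean of at least 1 FPKM, with group as the only term, an intensity trend, two-sided tests and Benjamini-Hochberg adjustment (prior and residual degrees of freedom 3.00 and 4). PRC1 was tested by exact permutation over 20 splits. The fit was tested on simulated data with larger changes than those of the members and without a GC trend or a deviating library. That simulation does not bear on differences as small as theirs. The 46 members and the lists were chosen with earlier results of these data known. Per-library values were given for the 2 members of each role with the smallest p, for CCNB1, CDK1, PLK1, MKI67, TOP2A and FOXM1, and for PRC1; the 3 genes of each further list with the smallest p were named with group means or differences. Per-library values of SPC24 and CDKN1A, and all ratios, were added after their values were seen. Same-numbered CBD and vehicle libraries did not deviate together (correlations -0.0027, 0.0524 and 0.0235), so the numbers were not taken as pairs. Alternatives covered pseudocount, filter, scaling, variance prior, block, GC trend (loess, span 0.3), limma-voom and each library left out; GC removal without vehicle replicate 1 was chosen after seeing the data. Python 3.11.15 with pandas 2.3.3 and matplotlib 3.10.9 made tables and plots.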

Additional observations from a re-analysis of the deposited data

How the results depend on the processing

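Of the values of single members over all alternatives, 725 kept their direction and side of the threshold, 54 changed sign and 29 came to pass the threshold. No member was called in the values as deposited, so a change of sign concerns uncalled values. The count of genes called was the least stable value. It was 32 higher and 12 lower as deposited, against 58 higher with a pseudocount of 5, 427 and 305 with a mean of at least 5 FPKM, 2 and 2 with equal FPKM sums, 0 and 1 without the intensity trend, 4 and 4 with the GC trend removed, and 909 and 836 with limma-voom. It was 0 and 0 with no filter on low values, with the replicate block, with the GC trend removed and the replicate block, and with the GC trend removed without vehicle replicate 1. Leaving out 1 library gave 0 to 1267 higher and 0 to 1084 lower, both highest without vehicle replicate 2. Members called then numbered 0 to 1 higher and 0 to 16 lower, and genes of the 6 further lists 0 to 9 higher and 0 to 31 lower. With at least 5 FPKM 1 member was called lower, with 3 further genes higher and 7 lower; with limma-voom 11 members were lower, with 7 further genes higher and 21 lower. The median difference of the members was -0.036 with the GC trend removed, with or without the replicate block, and -0.041 with vehicle replicate 1 also left out; the cause was not tested. It lay between -0.19 and -0.09 with single libraries left out.

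With the GC trend removed, the sign changed for CCNB2 (0.012), CDK1 (0.020), CDC25B (-0.096), CDC25C (0.00149), PLK1 (-0.020), AURKA (0.015), NUF2 (0.066), SPC25 (0.063), BUB3 (0.053), PTTG1 (0.000664), AURKB (-0.000496), INCENP (-0.016) and KIF11 (0.00387), with the same values under the replicate block, whose terms are balanced over the groups. With vehicle replicate 1 also left out it changed for CCNA2 (0.033), CCNB2 (0.044), CDK1 (0.039), CDC25B (-0.080), CDC25C (0.035), AURKA (0.020), NUF2 (0.094), SPC25 (0.13), BUB3 (0.065), AURKB (-0.072), INCENP (-0.068), KIF11 (0.036), KIF20A (0.014), ASPM (0.035) and TOP2A (0.023). Equal FPKM sums turned KIF2C to -0.00924. Leaving out single libraries took CENPA (-0.042 to 0.079), KIF2C (-0.027 to 0.031), CDC20 (-0.090 to 0.014), KIF20A (-0.083 to 0.018), NUSAP1 (-0.025 to 0.16), SPC25 (-0.17 to 0.028), AURKB (-0.00453 to 0.16) and CDCA8 (-0.11 to 0.010) across 0. Same-numbered libraries did not deviate together, which cannot show that they were unpaired, and with the replicate block 0 genes were called. Each tested member had 246 fragments or more per library, PRC1 as few as 37, and 3 libraries a group limit the precision.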
